A study of Mus musculus with 23 samples.

Results

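A set of 10 genes of glucose uptake and glycolysis was followed across the RNA-seq libraries of sorted mouse retinal microglia. They are the hexose transporters Slc2a1, Slc2a3, Slc2a4 and Slc2a5, the enzymes Hk2, Pgk1, Pkm and Ldha, the glycolysis regulator Pfkfb3 and the transcription factor Hif1a. They were chosen by name, as the table entries whose Ensembl identifiers map to these symbols, and are 10 of the 35825 genes in the deposited table. All 10 were found and all 10 passed the filter on low values. Glucose enters a cell through facilitative transporters of the Slc2a family, is phosphorylated by a hexokinase, and is split and oxidized to pyruvate, which lactate dehydrogenase turns into lactate. Hypoxia-inducible factor 1, of which Hif1a is the oxygen-regulated subunit, is known to raise the transcription of many of these genes through a short DNA element. Microglia, the resident macrophages of the retina, are known to carry the fructose transporter Slc2a5 as a characteristic transcript, and macrophages in general are known to raise glycolysis when activated.

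The study compared GFP+ microglia sorted from the retinas of CX3CR1-GFP mice, heterozygous for a GFP allele at Cx3cr1 and called WT here because their Spp1 is intact, with those of Spp1 KO; CX3CR1-GFP mice, which carry the same GFP allele and are homozygous for a mutant Spp1 allele in every cell (KO). Spp1 encodes the secreted protein osteopontin. Retinas were naïve, were taken 4 weeks after elevation of intraocular pressure by microbeads in the anterior chamber (IOP, a glaucoma model), or were taken 7 days after optic nerve crush (ONC). There were 4 libraries in each group except WT ONC, with 3. Retinas of several mice of one genotype and condition were pooled before sorting, so a library is a pool, and p-values measure only the spread between these pools. Ages are not given in the labels. In bulk RNA of this kind, fewer cells of a type and less RNA per cell cannot be told apart.

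Across the 23 libraries, 22180480 to 30296094 reads fell on genes (median 26914869), and 3 reads were worth 2.41 to 4.03 normalized counts, which is the upper limit behind a value of 0. Such limits cover counting error only. The libraries labelled KO still held Spp1 reads, with 6.78 to 350.2 normalized counts in KO naïve against 333.6 to 1518 in WT naïve, 9.28 to 810.7 in KO IOP against 1343 to 2772 in WT IOP and 15.0 to 6811 in KO ONC against 14557 to 22906 in WT ONC. Cx3cr1, the locus of the GFP allele, lay between 952.2 and 1233 in KO IOP and between 26836 and 54612 in WT IOP. It was higher in the other KO groups, at 9417 to 26283 in KO naïve and 12869 to 46130 in KO ONC. In WT it was at 44957 to 67878 in naïve and 33361 to 54810 after ONC. A list of 12 microglial markers was expressed in every library, but its share of all normalized counts differed between libraries: it was 1.20, 1.48 and 1.63% in KO naïve replicates 1, 2 and 4, 1.89 and 2.09% in WT IOP replicates 1 and 4, and 2.53 to 3.62% in the other 18 libraries. The same 3 KO naïve libraries held the most rod photoreceptor markers (3.16 to 3.72% of counts), and KO naïve replicate 3 had 1.19%. Lens markers made up 0.873 and 0.948% in WT IOP replicates 1 and 4. Values without these 5 libraries are given below beside the members' differences that rest on them. Without them, KO naïve is replicate 3 alone, which is then assumed to vary like the libraries of the other groups.

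Promoters are shown for the members with a RefSeq (GRCm38.p6) entry that passed a test among or between groups, or in the case of Hk2 only an interaction test, as given below. Slc2a3 and Slc2a4 also passed but had no entry, so their promoters were not examined. The letters of the hypoxia response element can be read in them. Each line holds the 250 bases before an annotated transcription start, 5′ to 3′ on the strand of the gene. Capitals mark the 5 letters ACGTG, the core of that element, or CACGT, the same core on the opposite strand. CACGTG, which holds both, is also the letters of an E-box.
Slc2a1, chr4:119108495-119108744, plus strand: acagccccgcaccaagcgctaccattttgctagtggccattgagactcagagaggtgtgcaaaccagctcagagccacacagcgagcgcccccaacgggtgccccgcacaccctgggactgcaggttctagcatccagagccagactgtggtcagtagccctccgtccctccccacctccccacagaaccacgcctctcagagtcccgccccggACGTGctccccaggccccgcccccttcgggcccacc
Pfkfb3, upstream start, chr2:11553930-11554179, minus strand: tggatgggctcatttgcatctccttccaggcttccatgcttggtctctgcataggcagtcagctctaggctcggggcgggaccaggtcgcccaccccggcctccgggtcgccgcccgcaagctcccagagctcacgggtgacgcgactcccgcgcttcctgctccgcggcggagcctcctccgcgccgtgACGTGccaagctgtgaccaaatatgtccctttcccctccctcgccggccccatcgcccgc
Pfkfb3, downstream start, chr2:11502091-11502340, minus strand: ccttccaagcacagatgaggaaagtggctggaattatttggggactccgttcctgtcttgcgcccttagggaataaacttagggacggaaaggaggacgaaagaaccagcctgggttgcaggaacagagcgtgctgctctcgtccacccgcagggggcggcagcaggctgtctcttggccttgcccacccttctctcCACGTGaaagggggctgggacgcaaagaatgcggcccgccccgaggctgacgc
Hk2, chr6:82774455-82774704, minus strand: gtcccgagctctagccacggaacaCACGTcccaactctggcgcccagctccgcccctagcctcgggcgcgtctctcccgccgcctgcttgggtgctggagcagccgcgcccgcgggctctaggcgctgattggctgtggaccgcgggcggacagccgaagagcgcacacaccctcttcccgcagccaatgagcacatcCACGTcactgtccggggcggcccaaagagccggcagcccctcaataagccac
Pgk1, chrX:106186850-106187099, plus strand: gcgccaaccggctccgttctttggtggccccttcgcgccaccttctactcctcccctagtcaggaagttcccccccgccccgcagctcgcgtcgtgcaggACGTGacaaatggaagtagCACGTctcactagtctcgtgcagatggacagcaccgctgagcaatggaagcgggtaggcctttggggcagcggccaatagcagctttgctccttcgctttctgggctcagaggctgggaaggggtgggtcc
The core stood in each of these 5 windows. It was not particular to called members: Ldha and Hif1a, not called in the main fit and not shown, had the most matches in a window (5 and 3). Among all 10 genes, 8 had an entry, with 11 promoters in total, and 8 of the 11 held the core on either strand. Of the genes, 7 of 8 held it in at least 1 promoter, and Slc2a5 was the one without it. The windows without the core belong to Slc2a5, Ldha and Pkm, which are not shown, and Ldha and Pkm held it in another window. By comparison, 16.6% of all 32851 promoters in the same table and 18.5% of its 27025 genes held it in a window of this length. A match describes letters and is not a measured binding site.

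Among the 10 genes, mean normalized counts, not divided by length, ranged from near the limit of detection (Slc2a4) to rank 42 of 24627 genes (Pkm). Levels are compared between genes per kilobase of exon. The median over 23 libraries was 10604 normalized counts per kb for Ldha and 10159 for Pkm, followed by Pgk1 (3457), Hif1a (2532.5), Slc2a5 (2199.5), Slc2a1 (1165.0), Hk2 (791.9), Pfkfb3 (503.2), Slc2a3 (207.9) and, last, Slc2a4. Of the 4 transporters the fructose transporter had the highest median per length, although in KO naïve the mean of Slc2a1 was higher (2056 against 2018 per kb). The means of Pkm exceeded those of Ldha in the KO groups (13619 against 11112 in naïve, 9762 against 8234 after IOP elevation and 10055 against 9300 after ONC), and the insulin-responsive transporter Slc2a4 was near the limit of detection, at 0 in 9 of 23 libraries. In a moderated F test over the 6 groups (limma on log2(normalized count + 1), Benjamini-Hochberg adjustment over 17102 genes), 5 of the 10 genes differed: Slc2a3 (adjusted p = 0.000921), Pfkfb3 (0.00189), Slc2a4 (0.0129), Slc2a1 (0.0269) and Pgk1 (0.0446). Of all genes tested, 31.4% passed the same test. The call of Pgk1 was lost without any 1 of the WT naïve libraries and in further fits that left out a library, that of Slc2a1 was lost without KO naïve replicate 4 or KO ONC replicate 1, 2 or 3, and both were lost without the 5 libraries of low microglial share.

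**Figure D1:**
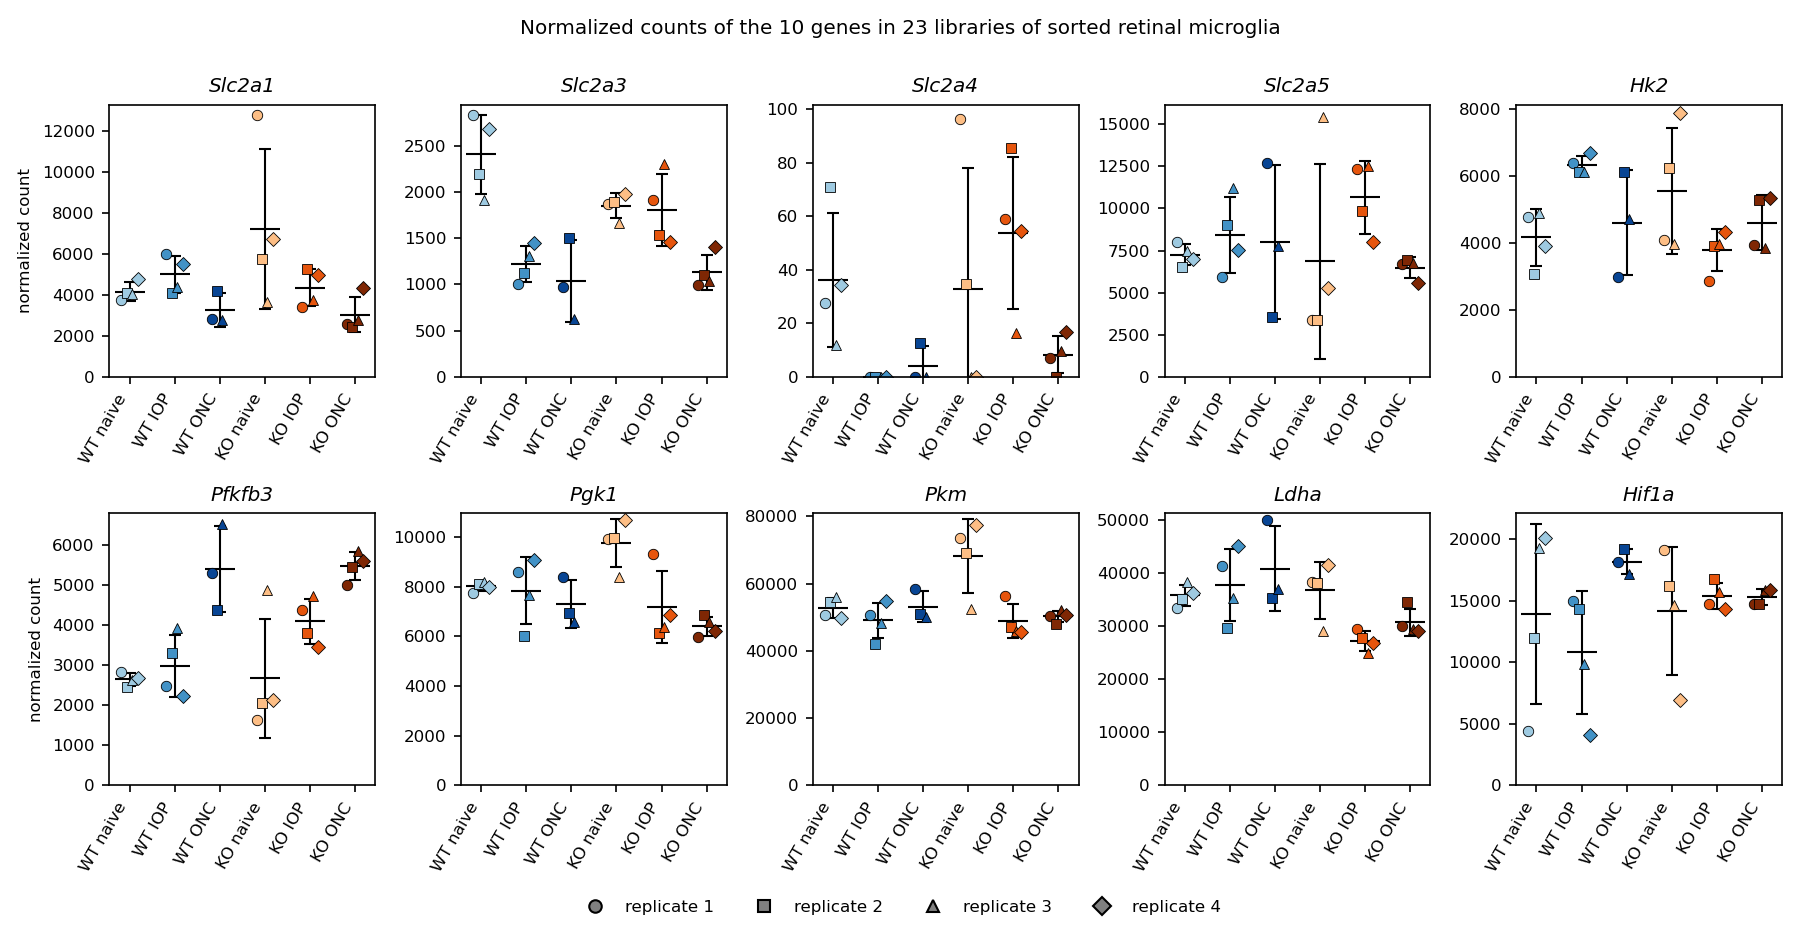
Normalized counts (vertical axes, linear, from 0) of each of the 10 genes in all 23 libraries, by group. Each symbol is a library, its shape is the replicate number, and the bar and whiskers are the mean and SD of the group. Slc2a3 is lower in both ONC groups than in the naïve groups, Pfkfb3 is highest after ONC, Slc2a4 is at 0 in the 4 WT IOP libraries, and KO naïve replicate 3 lies apart from the other KO naïve libraries in Slc2a5 and Pfkfb3.

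Slc2a3, the high-affinity glucose transporter GLUT3, known as the main transporter of neurons and also found in leukocytes, was lower after injury (ENSMUSG00000003153.10, chr6:122727809-122801640 of GRCm38, minus strand). Slc2a3 was at 2834, 2199.6, 1916 and 2681 normalized counts in the 4 WT naïve libraries. Slc2a3 was at 1009, 1123, 1307 and 1448 in WT IOP. Slc2a3 was at 975.7, 1506 and 624.7 in WT ONC. Every injured WT library lay below every naïve WT library. The log2 fold change was -0.97 after IOP elevation (SE 0.22, limma adjusted p = 0.0229) and -1.29 after ONC (SE 0.23, adjusted p = 0.000609). In exact permutation tests, two-sided, p was 0.0286 for IOP and 0.0571 for ONC, the smallest values that 4 against 4 and 3 against 4 libraries allow, and 0.167 and 0.190 after adjustment over 70 comparisons of the 10 genes. The call after IOP elevation was lost without WT naïve replicate 1 or 4 or WT IOP replicate 1 or 2 (adjusted p from 0.0578 to 0.106) and without the 5 libraries of low microglial share (log2 fold change -0.97, adjusted p = 0.262), whereas the call after ONC was kept in each of these fits that bears on it. Markers of amacrine cells, which are neurons, made up 0.109 to 0.119% of counts in WT naïve, 0.0332 to 0.0662% in WT IOP and 0.0066 to 0.0267% in WT ONC, and ganglion cell markers 0.036 to 0.0514%, 0.0345 to 0.0599% and 0.0015 to 0.0096%. All 6 amacrine markers were detected in every library, and up to 3 of 8 ganglion cell markers were at 0 in a library. Their part in the result was not tested.

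In KO microglia, Slc2a3 fell after ONC and not detectably after IOP elevation. Slc2a3 was at 1874, 1893, 1670.0 and 1978 in KO naïve. Slc2a3 was at 1916, 1540.0, 2300.2 and 1456 in KO IOP. Slc2a3 was at 990.1, 1102, 1033 and 1403 in KO ONC. The KO IOP libraries surrounded the KO naïve libraries, and the KO ONC libraries lay below them. The log2 fold change against KO naïve was -0.06 for IOP (95% interval -0.51 to 0.39) and -0.72 for ONC (SE 0.22, adjusted p = 0.0186). The ONC call was lost without KO naïve replicate 4, KO ONC replicate 1 or KO ONC replicate 3 (adjusted p from 0.0523 to 0.0539) and without the 5 libraries of low microglial share (-0.57, adjusted p = 0.585). After IOP elevation the 4 KO libraries were all above the 4 WT libraries (log2 fold change 0.55, SE 0.22, adjusted p = 0.16), a difference that did not pass, and the interaction of genotype with IOP elevation was 0.91 (95% interval 0.27 to 1.55, adjusted p = 0.0659). These values were 0.55 (adjusted p = 0.565) and 1.06 (0.787) without the 5 libraries. Amacrine markers were at 0.0684 to 0.107% in KO naïve, 0.0568 to 0.0915% in KO IOP and 0.023 to 0.0502% in KO ONC, and their part was not tested here either. Gm4482, a processed pseudogene inside the span of Slc2a3, held at most 2.34 normalized counts in any library.

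Slc2a1, the basal glucose transporter GLUT1 of most cell types (ENSMUSG00000028645.11, chr4:119108711-119137983, plus strand), was lower after ONC in KO microglia when all libraries were used. Slc2a1 was at 12752, 5728, 3649 and 6703 normalized counts in KO naïve. Slc2a1 was at 3414, 5257, 3739 and 4981 in KO IOP. Slc2a1 was at 2589, 2447, 2795 and 4325 in KO ONC. KO naïve replicates 1, 2 and 4, the libraries of low microglial and high rod marker share, were above all other libraries but 1 WT IOP library, while replicate 3 lay among the injured libraries. Replicates 1, 2 and 4 also held more pigment epithelium markers (0.101, 0.0331 and 0.0358%, against at most 0.0255% in any other library) and more Müller glia and astrocyte markers (0.415, 0.239 and 0.266%, against at most 0.2004%), both highest in replicate 1, and the part of these cells was not tested. The log2 fold change of KO ONC against KO naïve was -1.14 (SE 0.27, adjusted p = 0.00445), and it was -0.30 (adjusted p = 0.759) without the 5 libraries of low microglial share. KO IOP against KO naïve gave -0.60 (SE 0.27, adjusted p = 0.158), -0.88 without KO naïve replicate 3 (adjusted p = 0.0185) and 0.23 (adjusted p = 1.0) without the 5 libraries.

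In WT microglia Slc2a1 showed no called difference. Slc2a1 was at 3741, 4085, 4024 and 4796 in WT naïve. Slc2a1 was at 6006, 4076, 4407 and 5509.9 in WT IOP. Slc2a1 was at 2801, 4194 and 2768 in WT ONC. The groups overlapped, and the 2 highest WT IOP values were those of replicates 1 and 4, which also had the lowest microglial share among WT libraries. The log2 fold changes against WT naïve were 0.25 after IOP elevation (95% interval -0.32 to 0.82) and -0.38 after ONC (95% interval -0.99 to 0.24). KO naïve against WT naïve gave 0.65 (SE 0.27, adjusted p = 0.25), 0.93 without KO naïve replicate 3 (adjusted p = 0.0226) and -0.18 without the 5 libraries. The antisense genes Gm12867 and Gm12868 overlap Slc2a1, and whether counting used strand is not given in the sources used here.

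Slc2a5, the fructose transporter GLUT5 (ENSMUSG00000028976.10, chr4:150119283-150144169, plus strand), did not differ among the groups by the F test (adjusted p = 0.362) and varied most within KO naïve. Slc2a5 was at 3373, 3372, 15448 and 5268 normalized counts in KO naïve, where replicate 3 was the highest of all 23 libraries. It ranged from 6542 to 8004 in WT naïve, from 5905 to 11217 in WT IOP, from 3542 to 12671 in WT ONC, from 7981 to 12505 in KO IOP and from 5590 to 6919 in KO ONC. Within KO naïve the high library was the one with 3.51% microglial markers, and the lowest WT ONC library, replicate 2, had 2.53% against 3.56% in both others. KO IOP against KO naïve gave a log2 fold change of 0.93 (SE 0.38, adjusted p = 0.119), which was 1.42 without KO naïve replicate 3 (adjusted p = 0.00234) and -0.56 without the 5 libraries of low microglial share (adjusted p = 1.0), so that its direction turned on which libraries stood for KO naïve. The part of cell composition in these differences was not tested.

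**Figure D2:**
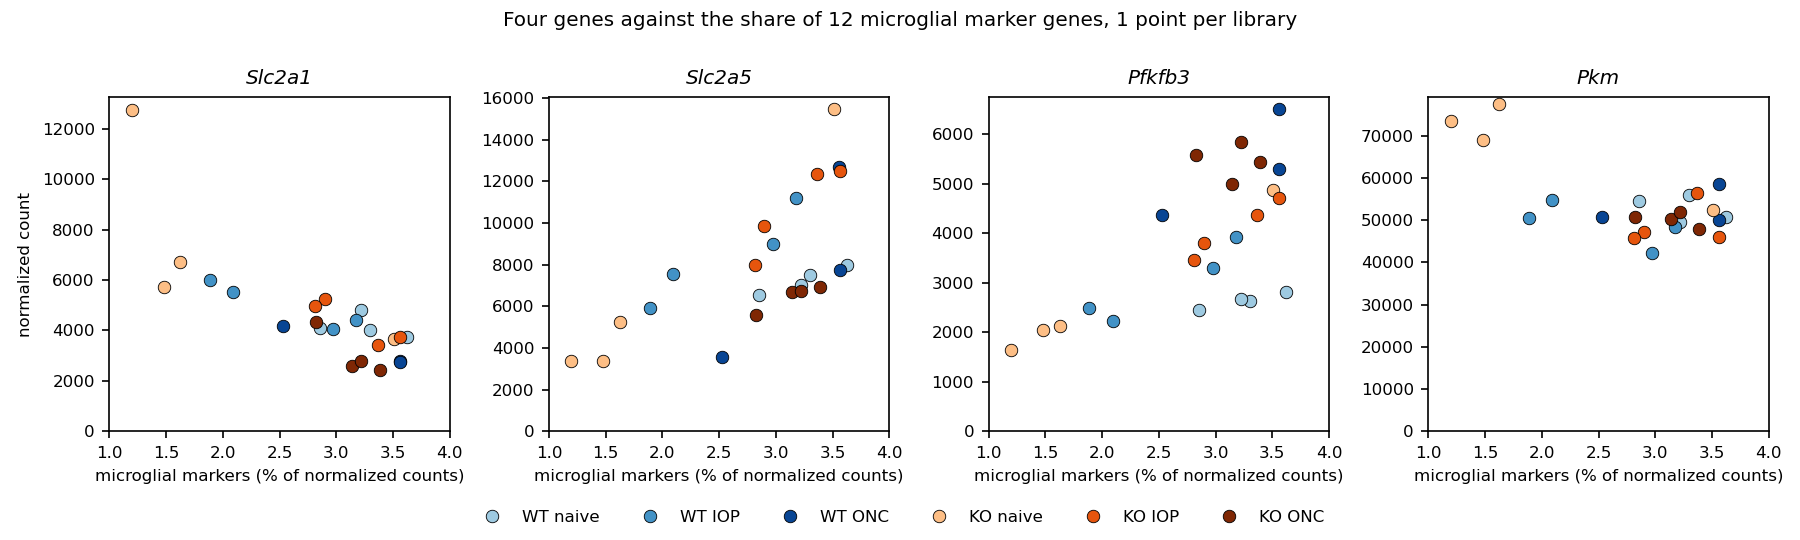
Normalized counts of Slc2a1, Slc2a5, Pfkfb3 and Pkm (vertical axes, linear, from 0) against the summed share of 12 microglial marker genes in each library (horizontal axes, % of normalized counts). Each point is a library, coloured by group. The 3 KO naïve libraries at 1.20 to 1.63% are the highest of all in Pkm and the lowest of all in Pfkfb3, and the KO naïve library at 3.51% lies apart from them in all 4 genes.

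Slc2a4, the insulin-regulated transporter GLUT4 of muscle and fat (ENSMUSG00000018566.14, chr11:69942539-69948188, minus strand), was detected at a low level and had no read in any WT IOP library. Slc2a4 was at 27.5, 71.1, 11.8 and 34.4 normalized counts in WT naïve. Slc2a4 was at 0 in all 4 WT IOP libraries. Slc2a4 was at 59.0, 85.4, 16.5 and 54.5 in KO IOP. Neither WT naïve nor KO IOP overlapped WT IOP. Against a limit of 3 reads per library, the mean of KO IOP was at least 18.7-fold higher than WT IOP, and that of WT naïve at least 12.6-fold. In limma both differences passed, KO IOP against WT IOP with adjusted p = 0.0233 and WT IOP against WT naïve with adjusted p = 0.0497. The first call was lost without WT IOP replicate 1 or 4 or KO IOP replicate 1, 2 or 4 (adjusted p from 0.0543 to 0.0767), with edgeR on recovered reads (0.0588) and without the 5 libraries of low microglial share (0.11). The second was lost in each of the 8 fits that left out a library (adjusted p from 0.0751 to 0.153).

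Elsewhere Slc2a4 was scattered between 0 and its highest values. Slc2a4 was at 96.3, 34.6, 0 and 0 in KO naïve. Slc2a4 was at 0, 12.7 and 0 in WT ONC. Slc2a4 was at 7.18, 0, 9.64 and 16.7 in KO ONC. These groups overlapped each other and WT naïve. WT ONC against WT naïve missed the threshold (adjusted p = 0.0635) and passed it without WT ONC replicate 2 (0.0153) or without the 5 libraries of low microglial share (0.0261). The interaction of genotype with IOP elevation was called (7.58 on the log2 scale, SE 1.80, adjusted p = 0.0161), and it was kept in all 16 fits without 1 library (adjusted p up to 0.0409) but not without the 5 libraries (adjusted p = 0.0616). Fitted log2 values of a gene at 0 in a whole group depend on the pseudocount and are no measure of size. KO IOP also differed from WT IOP in Cx3cr1 and, as given below, in Ddx3y, and their part was not tested. Of the 6 skeletal muscle markers listed, the sum was at most 0.0006% of counts in every group.

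Hk2, the inducible hexokinase that traps glucose as its phosphate (ENSMUSG00000000628.10, chr6:82725025-82774454, minus strand), had a called interaction of genotype with IOP elevation when all libraries were used. Hk2 was at 4779, 3072, 4894 and 3919.9 normalized counts in WT naïve. Hk2 was at 6377, 6103, 6119.8 and 6689.6 in WT IOP. These groups did not overlap (log2 fold change 0.62, SE 0.23, adjusted p = 0.22), but the difference did not pass over all genes. Hk2 was at 4098, 6233, 3953 and 7878 in KO naïve. Hk2 was at 2874, 3915, 3979.8 and 4327 in KO IOP. The KO groups overlapped, with a log2 fold change of -0.51 (SE 0.23, adjusted p = 0.159). Without the 5 libraries the WT difference was 0.58 (adjusted p = 0.645) and the KO difference -0.08 (adjusted p = 1.0). The test of the difference between these responses, the interaction, was called at -1.13 (SE 0.33, 95% interval -1.81 to -0.46, adjusted p = 0.0344). The KO IOP libraries also differed from WT IOP in Cx3cr1 (952.2 to 1233 against 26836 to 54612). They differed as well in Ddx3y, a gene of the Y chromosome (at most 3.05 against 632.8 to 2274). The part of sex and of Cx3cr1 in the interaction was not tested.

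The interaction of Hk2 was close to the threshold. It was lost in 8 of 16 fits that left out a library, namely WT naïve replicate 2 or 4, WT IOP replicate 1 or 4, KO naïve replicate 2 or 4 and KO IOP replicate 1 or 3 (adjusted p from 0.0507 to 0.0875). Without the 5 libraries of low microglial share it was -0.66 (adjusted p = 0.917). The 4 KO IOP libraries lay below the 4 WT IOP libraries (log2 fold change -0.76, SE 0.23, adjusted p = 0.0823; exact permutation p = 0.0286, adjusted 0.167), a difference that passed in DESeq2 (adjusted p = 0.0418) and in limma on these groups alone (0.041), but not in limma over the 6 groups or in edgeR (0.111). It was -0.71 (adjusted p = 0.434) without the 5 libraries. After ONC, Hk2 ranged from 2973 to 6125 in WT and from 3854 to 5345 in KO, overlapping the naïve libraries. An antisense gene, Gm17034, overlaps Hk2.

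Pfkfb3, whose product makes fructose 2,6-bisphosphate, the activator of phosphofructokinase, was higher after ONC in both genotypes (ENSMUSG00000026773.19, chr2:11471433-11554077, minus strand). Pfkfb3 was at 2821, 2447, 2627 and 2676 normalized counts in WT naïve. Pfkfb3 was at 5301, 4366 and 6517 in WT ONC. The WT groups were separate, with a mean 2.04 times higher after ONC (log2 fold change 1.01, SE 0.26, adjusted p = 0.0105). Pfkfb3 was at 1634, 2044, 4873 and 2120.5 in KO naïve. Pfkfb3 was at 5003, 5441, 5847 and 5588 in KO ONC. The KO groups did not overlap either, although KO naïve replicate 3 came close to the lowest KO ONC library. The mean was 2.05 times higher after ONC (log2 fold change 1.17, SE 0.24, adjusted p = 0.00146).

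The ONC rise of Pfkfb3 in KO was not called without the libraries of low microglial share. In WT it lost its call without WT ONC replicate 3 (0.87, adjusted p = 0.0594) and was kept without the 5 libraries of low microglial share (adjusted p = 0.000266), none of which are WT naïve or WT ONC libraries. In KO it was kept in each fit that left out a library (adjusted p up to 0.00829), and without the 5 libraries it was 0.16 (adjusted p = 0.821). The interaction of genotype with ONC was 0.16 (95% interval -0.58 to 0.90, adjusted p = 0.891). Pfkfb3 was at 2482, 3298, 3927 and 2225 in WT IOP. Pfkfb3 was at 4365, 3804, 4719 and 3462 in KO IOP. The WT IOP libraries overlapped WT naïve (log2 fold change 0.14, adjusted p = 0.855), and the 2 lowest were again replicates 1 and 4. KO IOP against KO naïve gave 0.74 (SE 0.24, adjusted p = 0.0593), 1.08 without KO naïve replicate 3 (adjusted p = 0.000356) and -0.26 without the 5 libraries.

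**Figure D3:**
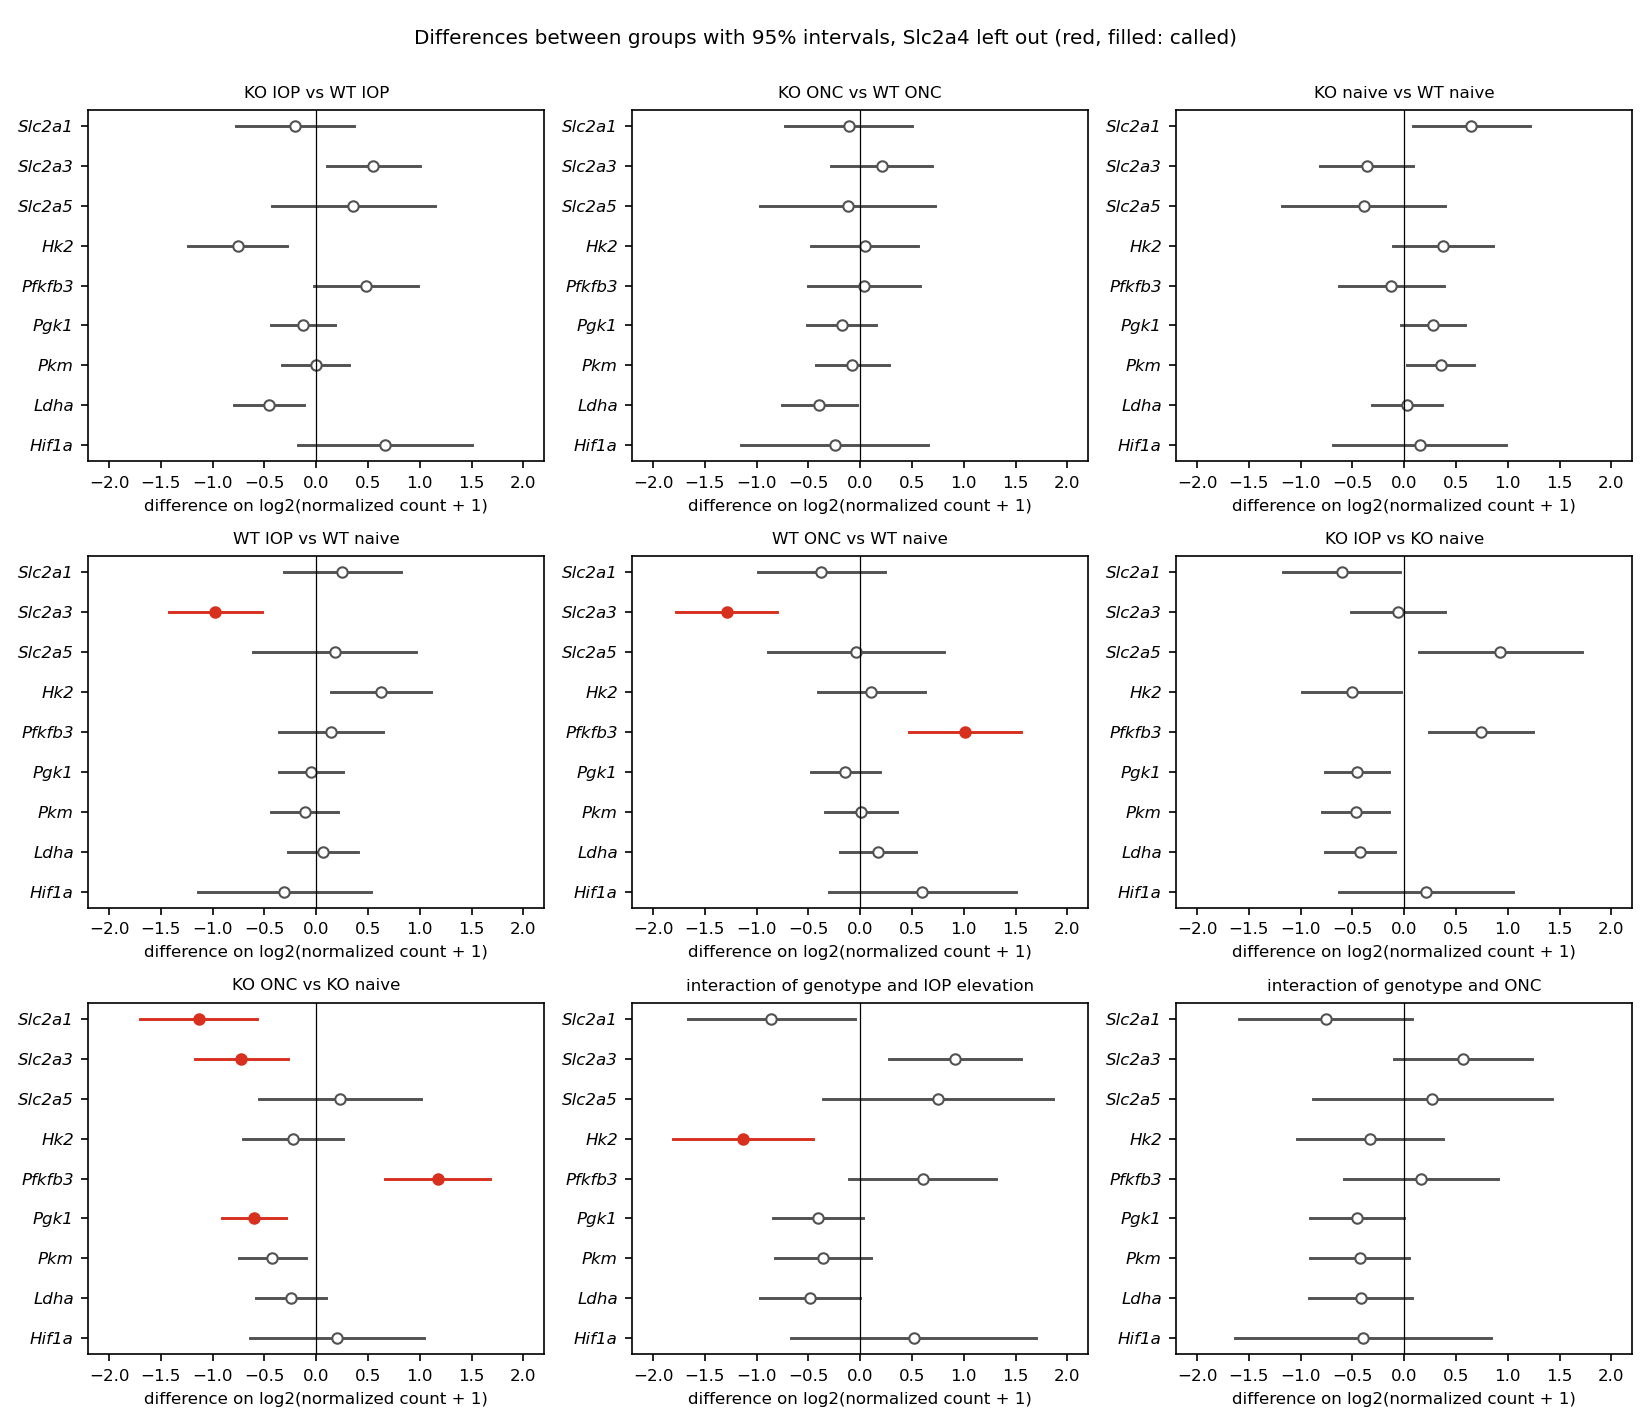
Difference between groups for 9 of the genes (horizontal axes, difference of the means of log2(normalized count + 1)) with its 95% interval from limma, 1 panel per comparison. Slc2a4 is left out for its scale. Red filled points were called (adjusted p under 0.05 and more than 0.58 on the log2 scale): Slc2a3 in 3 panels, Pfkfb3 in both ONC panels, Slc2a1 and Pgk1 in KO ONC against KO naïve, and Hk2 in the interaction with IOP elevation.

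Pgk1, which makes the first ATP of glycolysis (ENSMUSG00000062070.12, chrX:106187100-106203699, plus strand), was lower after ONC in KO microglia. Pgk1 was at 9917, 9952, 8403 and 10697 normalized counts in KO naïve. Pgk1 was at 5987, 6851, 6592 and 6206 in KO ONC. The groups did not overlap, and the mean after ONC was 0.658 times the naïve mean (log2 fold change -0.60, SE 0.15, adjusted p = 0.00521). Pgk1 was at 9316, 6142, 6391 and 6864 in KO IOP, where replicate 1 lay within the naïve range (log2 fold change -0.46, SE 0.15, adjusted p = 0.0584). Without KO IOP replicate 1 that difference was called (-0.59, adjusted p = 0.0299), and without the 5 libraries it was -0.25 (adjusted p = 1.0). The ONC call fell below the size threshold without KO naïve replicate 4 or KO ONC replicate 1 (-0.55 and -0.57) and with edgeR (-0.58), and was -0.39 (adjusted p = 0.518) without the 5 libraries of low microglial share.

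WT microglia showed no called difference in Pgk1. Pgk1 was at 7757, 8098, 8182 and 7999 in WT naïve, the tightest group of all (SD 2.30% of the mean). It ranged from 6007 to 9084 in WT IOP and from 6558 to 8380 in WT ONC, around the naïve values. The log2 fold changes were -0.05 (95% interval -0.36 to 0.26) and -0.14 (95% interval -0.47 to 0.19). The interaction of genotype with ONC was -0.46 (95% interval -0.91 to -0.01, adjusted p = 0.394). Pgk1 lies on the X chromosome, and Ddx3y, a gene of the Y chromosome, reached only 3.05 in KO IOP, between 632.8 and 2274 in WT IOP, between 1369 and 1717 in KO ONC, and spread widely in the 3 other groups (0 to 2623 in WT naïve, 3.51 to 1797 in WT ONC, 28.1 to 1713 in KO naïve). The part of sex in these values was not tested.

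Pkm, the pyruvate kinase of most adult tissues besides liver (ENSMUSG00000032294.17, chr9:59656368-59679375, plus strand), and Ldha, which reduces pyruvate to lactate (ENSMUSG00000063229.15, chr7:46841475-46855627, plus strand), were the most abundant members and passed in no comparison. Pkm was at 73458, 68994, 52508 and 77482 normalized counts in KO naïve, against 42185 to 58513 in all other groups. The 3 high libraries were again those of low microglial share. Pkm fell short of the threshold in KO IOP against KO naïve (-0.47, SE 0.16, adjusted p = 0.0632) and in KO ONC against KO naïve (-0.42, SE 0.16, adjusted p = 0.0517), although its KO ONC and KO naïve libraries did not overlap. Without KO naïve replicate 3 the former was called (-0.59, adjusted p = 0.00437), and without the 5 libraries these differences were -0.11 and -0.06. Exon choice between the M1 and M2 forms of Pkm cannot be read from counts per gene.

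Ldha was at 24893 to 29530 normalized counts in KO IOP and at 29617 to 45061 in WT IOP. The groups did not overlap but nearly touched (log2 fold change -0.46, SE 0.16, adjusted p = 0.128). The higher WT IOP values, 41286 and 45061, were those of replicates 1 and 4, and without the 5 libraries of low microglial share the difference was -0.25 (adjusted p = 0.652). After ONC Ldha lay between 29076 and 34542 in KO and between 35403 and 50030 in WT, again without overlap (-0.39, SE 0.18, adjusted p = 0.498; exact permutation p = 0.0571, adjusted 0.19). The naïve ranges of both genotypes overlapped (29125 to 41565 in KO and 33513 to 38305 in WT), with a log2 fold change of 0.03. Neither the interaction with IOP elevation (-0.49, 95% interval -0.96 to -0.01, adjusted p = 0.184; 0.0464 without the 5 libraries) nor that with ONC (-0.42, 95% interval -0.92 to 0.08, adjusted p = 0.483) passed. Processed copies of Pgk1, Pkm and Ldha exist elsewhere in the mouse genome, and how shared reads were assigned is not given in the sources used here.

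Hif1a, the oxygen-regulated subunit of HIF-1 (ENSMUSG00000021109.13, chr12:73901375-73947530, plus strand), showed no called difference among the 6 groups and spread widely within some of them. Hif1a was at 4439, 11984, 19249 and 20069 normalized counts in WT naïve. Hif1a was at 14932, 14329.9, 9889 and 4136 in WT IOP. Hif1a was at 19065, 16174, 14624 and 6904 in KO naïve. Each of these groups held 1 library far below its highest. The other groups were tight, with 17160 to 19186 in WT ONC, 14349 to 16737 in KO IOP and 14691 to 15878 in KO ONC. The WT ONC libraries lay above the KO ONC libraries without overlap (KO against WT -0.25, 95% interval -1.15 to 0.66, adjusted p = 0.916). The F test over the 6 groups gave an adjusted p of 0.46, and the lowest adjusted p of any comparison was 0.345. HIF-1 is regulated mainly through the stability of this protein, which RNA does not measure. The genes Gm15283 (antisense) and Gm49321 overlap Hif1a.

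Read by comparison, Slc2a3 was lower and Pfkfb3 higher after ONC in both genotypes. In WT ONC against WT naïve, 2 of 10 were called (Slc2a3 lower, Pfkfb3 higher) with 18.1% of all genes called, and the median log2 fold change of the members was -0.02 against -0.10 for all genes. In KO ONC against KO naïve, 4 of 10 were called (Slc2a1, Slc2a3 and Pgk1 lower, Pfkfb3 higher) with 23.6% of all genes, and the medians were -0.27 and -0.12. Without the 5 libraries of low microglial share, 3 of 10 were called in the WT comparison (Slc2a4 as well) and 0 of 10 in the KO comparison, where limma then called 112 of all genes. In WT IOP against WT naïve, 2 of 10 were called (Slc2a3 and Slc2a4 lower) with 1.56% of all genes. In KO IOP against KO naïve, limma, edgeR and DESeq2 called 0 of 10, with 7.88% of all genes called in limma and 7 of the 10 at an unadjusted p under 0.05, and 4 of 10 were called without KO naïve replicate 3. KO naïve was then replicates 1, 2 and 4, all of low microglial share. Without the 5 libraries, Slc2a1 (0.23), Slc2a5 (-0.56) and Pfkfb3 (-0.26) changed sign in this comparison. The comparisons of IOP and ONC share their naïve libraries.

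Between genotypes, Slc2a4 was the single member called in KO IOP against WT IOP, where 2.11% of all genes were called and the members' median log2 fold change was 0.18 (all genes -0.03). In KO ONC against WT ONC, limma, edgeR and DESeq2 called 0 members, 1 of 10 had an unadjusted p under 0.05, and 0.0877% of all genes were called in limma. In KO naïve against WT naïve, the same 3 tools called 0 members, 2 had an unadjusted p under 0.05, and 0.409% of all genes were called. Without KO naïve replicate 3, Slc2a1 was called there. The interaction of genotype with IOP elevation was called for Slc2a4 and Hk2, with 8.75% of all genes called. The interaction with ONC was called for 0 members by any of the 3 tools (1 at an unadjusted p under 0.05), with 0.0702% of all genes called. For the members other than Slc2a4, the 95% intervals of KO against WT after ONC had a lowest bound of -1.15 (Hif1a) and a highest bound of 0.73 (Slc2a5).

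Beyond the 10 genes, 72 other genes were listed in 7 groups of the pathway, of which 68 were tested. In WT ONC against WT naïve, 5 were higher and 8 lower (19.1%, beside 18.1% of all genes tested), and in KO ONC against KO naïve, 15 were higher and 11 lower (38.2%, beside 23.6%). Without the 5 libraries of low microglial share these counts were 14 in WT and 0 in KO, so no KO call below was made without KO naïve replicates 1, 2 and 4. Of 16 glycolytic enzymes, 5 were called lower in WT and 11 were not called. In KO, 6 were called lower, 1 was called higher and 9 were not called. Eno2, the neuronal enolase, fell by 1.80 on the log2 scale in WT (adjusted p = 2.84e-05) and by 1.24 in KO (0.000432). Pfkm, the muscle-type phosphofructokinase, fell by 1.81 in WT (adjusted p = 5.02e-06) and by 1.18 in KO (0.000137). Aldoc, an aldolase of neural tissue, fell by 1.22 and 1.30 (adjusted p = 0.00617 and 0.0015). Retinal ganglion cell markers fell as well, from 0.036 to 0.0514% of counts in WT naïve to 0.0015 to 0.0096% in WT ONC and from 0.0536 to 0.0608% in KO naïve to 0.0051 to 0.011% in KO ONC, with 8 of 8 markers in the table and up to 3 at 0 in a library. Rod markers went from 1.51 to 1.85% to 0.514 to 1.93% in WT and from 1.19 to 3.72% to 0.732 to 1.07% in KO. The part of these cells in the enzyme values was not tested. In WT IOP against WT naïve, 0 of the 68 were called higher and 4 lower (5.88%, beside 1.56% of all genes tested). These were Pfkm (-0.82), Ldhb (-0.75), Kdm3a (-0.80) and Tkt (-0.63), with limma adjusted p up to 0.0388, and WT IOP includes 2 libraries of low microglial share. In KO IOP against KO naïve, 3 were called higher and 2 lower (7.35%, beside 7.88%).

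Among the genes that rose after ONC in both genotypes, Slc2a6, a transporter of lysosomal membranes in macrophages, rose most among the listed transporters. It was at 497.7 ± 52.6 (SD, n = 4) in WT naïve and 4256 ± 2269 (n = 3) in WT ONC (log2 fold change 2.95, adjusted p = 5.27e-05), and at 639.8 ± 436.5 (n = 4) in KO naïve and 2912 ± 565 (n = 4) in KO ONC (2.37, adjusted p = 0.000189). Pdk1, a kinase that inhibits pyruvate dehydrogenase, rose by 2.42 and 1.91 (adjusted p = 0.0184 and 0.033). Egln3, an oxygen-dependent prolyl hydroxylase acting on HIF, rose by 1.43 and 1.96 (adjusted p = 0.0329 and 0.00198). Of 12 other HIF target genes tested, 0 were called in WT ONC. In KO ONC, Car9 (2.23) and P4ha1 (0.75) were called higher, and Vegfa (-1.50) and Ankrd37 (-1.11) lower. Of the HIF pathway genes, Vhl was also called higher (0.87) and Epas1 lower (-1.57) in KO ONC.

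Other members of the pathway passed in a single genotype, and only the interaction tests bear on a difference between genotypes. In KO ONC, Hk3, the hexokinase of myeloid cells, rose by 1.22 (adjusted p = 0.00412), the lactate dehydrogenase subunit Ldhb by 1.18 (0.000114), the lactate exporter Slc16a3 by 0.74 (0.0284) and the pentose phosphate enzymes Taldo1, Rpe and Pgd by 0.96, 1.05 and 0.85 (adjusted p up to 0.00893). Slc16a1, another monocarboxylate transporter, fell by 1.32 (0.00153). Of the 68 genes, the interaction with ONC was called for 0 by limma, edgeR and DESeq2, with 12 at an unadjusted p under 0.05 in limma. The interaction with IOP elevation was called for 8 (11.8%, beside 8.75% of all genes tested). In 6 of them the change after IOP elevation was more positive in KO than in WT: Hk3 (1.55), Ldhb (1.27), Kdm3a (0.93), Rpe (1.15), Pgd (1.22) and Taldo1 (0.94). Means of these 6 were lower in KO naïve than in WT naïve (Rpe 586.2 against 1190) and higher in KO IOP than in WT IOP (Rpe 1025 against 928.2). For Slc2a12 (-6.83) and Egln1 (-1.37) the change was more negative in KO than in WT. Slc2a12 was low, with means of 97.9 normalized counts in KO naïve, 0.506 in KO IOP, 7.02 in WT naïve and 23.9 in WT IOP. Its fitted log2 value depends on the pseudocount and is no measure of size. Without the 5 libraries 0 of the 68 were called in this interaction. Between genotypes within a condition, limma called 1 of the 68 genes in the naïve state (Rpe, -1.04, adjusted p = 0.0358), edgeR called 1 and DESeq2 4, and limma called 0 without the 5 libraries, with 18 at an unadjusted p under 0.05 when all libraries were used. After IOP elevation limma and edgeR called 0 and DESeq2 called 3, with 15 at an unadjusted p under 0.05 in limma. After ONC all 3 tools called 0, with 6 at an unadjusted p under 0.05.

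**Figure D4:**
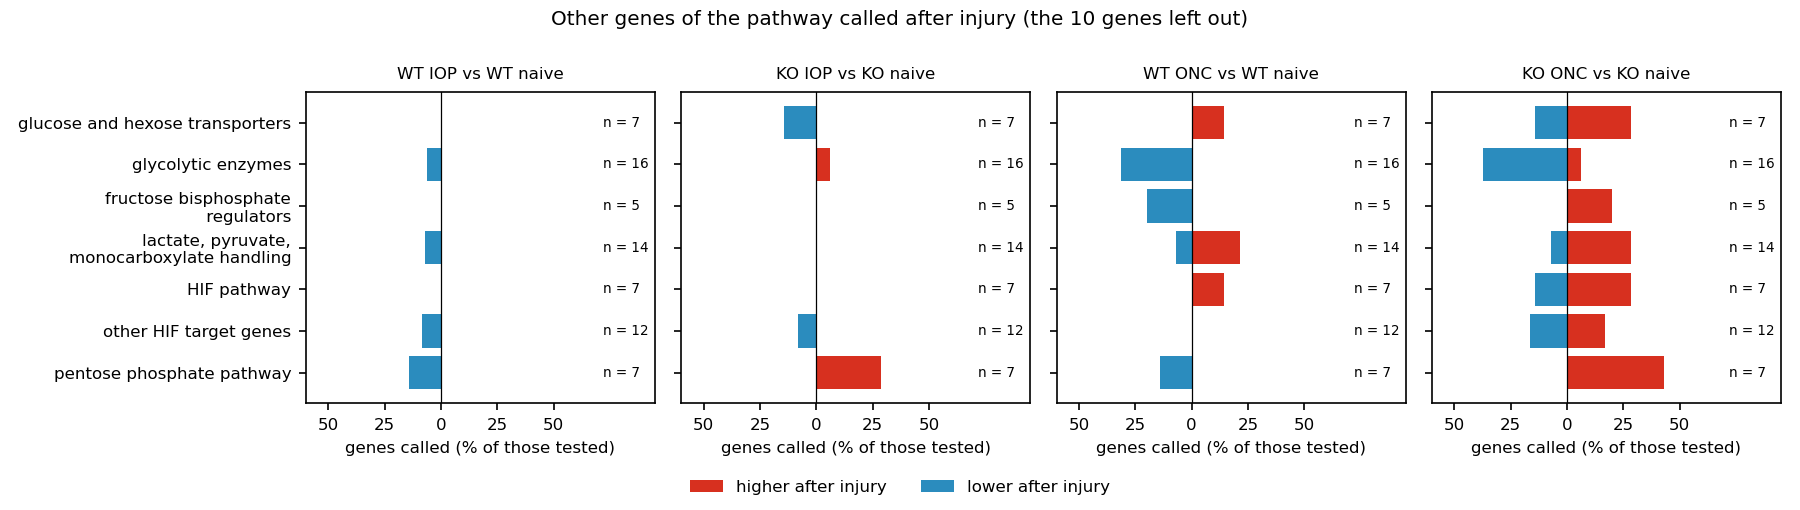
Share of the tested genes of each of 7 pathway groups called higher (red, right) or lower (blue, left) after injury, in % of the genes tested, with the 10 genes of the report left out and the number tested given as n. Of 16 glycolytic enzymes, 5 in WT and 6 in KO were called lower after ONC. After IOP elevation, 5.88% of the 68 genes were called in WT (beside 1.56% of all genes tested) and 7.35% in KO (beside 7.88%).

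Over the 23 libraries, the genes whose log2 values were most like those of each member are given as a description, since the libraries share group, depth and composition. Slc2a5 was closest to Ptgs1 and Tmem119 (Pearson r = 0.92 for both), the latter a microglial marker. Pgk1 was closest to Tpi1 (0.93) and Eno1 (0.91) and Pkm to Eno1 (0.93) and Aldoa (0.85), all glycolytic enzymes. Pfkfb3 was closest to Cd180 and Pdcd1 (0.96 for both), Slc2a1 to Pla2g5 (0.93) and Ddr1 (0.91), Slc2a3 to Pcdhgc4 and Asic2 (0.91 for both), and Slc2a4 to Slc5a5 (0.82) and Tfec (0.81). Hk2 was closest to Gm47968 and Vmn2r112 (0.85 for both), Ldha to Pcbp2 (0.85) and Thoc7 (0.83), and Hif1a to Tsnax (0.97) and Pgam5 (0.96). Among the members themselves, Pgk1 and Pkm were the most alike (0.83), and Slc2a1 and Pfkfb3 were the most opposed (-0.82).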

How the data were processed

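RNA-seq was performed on GFP+ microglia sorted from mouse retinas, in 23 libraries of 6 groups taken from the labels. Per the study's methods, the authors mapped paired-end reads to GRCm38 with salmon, while the submitters' processing notes name STAR and DESeq2, in no stated role. The deposited values are normalized counts, a signal in which the reads of a gene are divided by a size factor of its library. In each library 100.0% of values were whole reads to within 0.01 after division by the step between values, so reads were recovered for all 23 libraries. Versions and the treatment of strand are not given in the sources used here. Correlations between replicates ranged from 0.876 to 0.956 (Pearson's r over genes), with 0 identical pairs. Of 35825 gene identifiers, 34732 matched GENCODE M21 (GRCm38) with their version and 704 without it.

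The log2(normalized count + 1) of the 17102 genes that reached 10 in 3 or more libraries was fitted to 6 group means by limma 3.58.1 (R 4.3.3; empirical Bayes with a trend). A gene was called where the Benjamini-Hochberg adjusted p was under 0.05 and the log2 fold change exceeded 0.58 in size. For the 10 genes, exact permutation tests (two-sided) were adjusted over 7 comparisons. Alternatives were pseudocounts of 0.5 and 5, no filter, a filter at a mean of 50, quantile normalization, rescaling to the upper quartile, the replicate number as a block, the compared groups alone, edgeR 4.0.16 (quasi-likelihood) and DESeq2 1.42.0 on recovered reads, leaving out each library, and, chosen after seeing the data, leaving out the 5 libraries with under 2.2% microglial markers. The fits were tested on simulated data. Members and lists were chosen with earlier results of these data known. Genes named are the members, the called genes of 7 pathway lists (at most 6 per list), the 2 genes most like each member, Spp1 and Cx3cr1. Ddx3y and Gm4482 were named after their values were seen. Where a symbol has 2 gene models (Aldoa), the longer was used in the lists. Promoters are from RefSeq. Tables and figures were made with Python 3.11.15, pandas 2.3.3, scipy 1.17.1 and matplotlib 3.10.9.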

Additional observations from a re-analysis of the deposited data

Results flagged for a closer look

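Within groups of 4 libraries, 4 values lay far from the others by Dixon's criterion at the 95% level, among 49 combinations of a gene and a group examined. Chance gives about 1 in 20 such groups. Slc2a5 in KO naïve replicate 3 was at 15448 normalized counts against 3372 to 5268 in the other KO naïve libraries, and Pfkfb3 in the same library was at 4873 against 1634 to 2120.5. That library also had the highest microglial and the lowest rod marker share of its group, and the part of composition was not tested. Slc2a5 in KO ONC replicate 4 was at 5590 against 6699 to 6919. Pkm in KO IOP replicate 1 was at 56387 against 45707 to 47241.

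Responses to IOP elevation differed between the genotypes in a test of the difference itself for Slc2a4 (interaction 7.58 on the log2 scale, limma adjusted p = 0.0161) and for Hk2 (-1.13, adjusted p = 0.0344). Hk2 was higher in 4 of 4 WT IOP libraries than in any WT naïve library, and in KO the groups overlapped. The call for Hk2 was lost in 8 of 16 fits that left out a library. KO IOP also differed from WT IOP in Cx3cr1 and in Ddx3y of the Y chromosome, and their part in both interactions was not tested.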

How the results depend on the processing

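Of 31 log2 fold changes with an unadjusted p under 0.05, 11 were called, and the sign changed in 7 results, each without the 5 libraries of low microglial share: Slc2a1 (-0.18) and Pkm (-0.0057) in KO naïve against WT naïve, Slc2a1 (0.23), Slc2a5 (-0.56) and Pfkfb3 (-0.26) in KO IOP against KO naïve, and Slc2a1 (0.20) and Ldha (0.0464) in the interaction with IOP elevation. Without these libraries the number of members called was 0 in KO IOP against WT IOP, WT IOP against WT naïve, KO ONC against KO naïve and the interaction with IOP elevation, and 3 differed in the F test. In KO IOP against WT IOP (1 member called), 0 were called with a filter at a mean of 50, which leaves out Slc2a4, or with edgeR, and 2 with the compared groups alone or DESeq2. In WT IOP against WT naïve (2 called), 1 was called with a pseudocount of 5, no filter, a filter at a mean of 50, upper-quartile rescaling, the replicate block or edgeR. In KO IOP against KO naïve (0 called), 3 were called with quantile normalization (Pgk1, Pkm and Ldha) and 1 with the replicate block (Pfkfb3). In the interaction with IOP elevation (2 called), 1 was called with no filter or a filter at a mean of 50 and 4 with quantile normalization. In the F test (5), quantile normalization gave 8. The causes of these changes were not tested, although leaving out libraries also leaves fewer samples.

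Leaving out 1 library at a time gave 0 to 1 members called in KO IOP against WT IOP, 0 to 1 in KO naïve against WT naïve, 0 to 1 in WT IOP against WT naïve, 1 to 3 in WT ONC against WT naïve, 0 to 4 in KO IOP against KO naïve, 2 to 4 in KO ONC against KO naïve, 1 to 5 in the interaction with IOP elevation and 3 to 8 in the F test. Without KO naïve replicate 3 the count was 4 in KO IOP against KO naïve, 5 in that interaction and 8 in the F test. In those fits every KO naïve library was one of low microglial share. Same-numbered libraries showed no clear common deviation (r over 0.1 in 10 of 55 pairs, from -0.25 to 0.23). Differently numbered libraries were not compared, so the check found no sign of pairing but cannot exclude it. The replicate block changed the call of Slc2a4 in WT IOP against WT naïve (adjusted p = 0.0567) and of Pfkfb3 in KO IOP against KO naïve (log2 fold change 0.74, adjusted p = 0.0344). Depth limits the precision of the values of Slc2a4, whose highest value is 96.3 normalized counts.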
